A study of Mus musculus with 50 samples.

Results

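Mouse embryonic stem cells were examined after 48 h without doxycycline, a withdrawal meant to deplete the transcription kinase Cdk12. The readout was the change of each transcript against the same clones at 0 h. All genes with a 48 h change were taken, 12766 of the 12819 rows of the authors' deposited table, and 12408 of them also carried a posterior probability of differential expression. The cells were V6.5 embryonic stem cells (C57Bl/6-129) grown on gelatin with LIF. In clones 28 and 36 the endogenous Cdk12 gene is lost and a doxycycline (Dox) inducible Cdk12 transgene replaces it. At 0 h these clones were in 1 µg/mL Dox, which keeps the transgene on, and the 48 h cultures had been washed and kept in medium without Dox for 48 h. Each clone gave 2 libraries per time, so that 4 libraries at 0 h and 4 at 48 h stood behind the comparison, made from polyA-selected RNA with integrity numbers of 9.4 to 10. Each of the 2 clones is a single derived line, and the sources used here do not say how clones and replicates were combined. Parental floxed Cdk12 cells without the transgene, given Dox for 17 days and then withdrawn from it, served as the control for Dox itself. No column is named for them. The headers do not state which groups gave the per-gene mark named for a Dox effect, or the adjusted p. Values of single libraries are not in the table, so genes are given with neither SD nor replicate number, and sequencing depth is unknown. Changes are given as log2 of 48 h over 0 h, with the deposited sign reversed, since the column names put 0 h first.

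Cdk12 pairs with cyclin K (Ccnk) and phosphorylates the C-terminal repeat domain of RNA polymerase II during elongation. Cdk13 is its closest relative and uses the same cyclin. Cdk12 is best known for keeping up full-length transcripts of DNA repair genes, many of them long. In embryonic stem cells repair and cell death genes matter because these cells divide fast and enter apoptosis readily after DNA damage.

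After 48 h similar numbers of genes fell and rose. A gene was called where the deposited posterior probability was at least 0.95. By that rule 493 genes fell, 3.97% of those tested, and 461 rose, 3.72%, so 7.69% of genes were called in either direction. The median log2 change was 0.01 over all genes, -0.85 over the genes that fell and 0.84 over those that rose. Among called genes falls reached further than rises. At 4-fold or more 24 genes fell and 6 rose, and at 16-fold or more 4 genes fell (Rapgef4, Duox1, Duoxa1 and Lypd1) and none rose. Of these, Lypd1 had a deposited adjusted p of 0.139, above 0.05. The 2 genes of still larger change, in opposite directions, had no posterior probability and are given at the end. The middle of the distribution was narrow, from -0.22 at the 25th percentile to 0.23 at the 75th. At 24 h against the same 0 h libraries the interquartile range was 0.32, beside 0.45 at 48 h. No called gene changed by less than 1.43-fold.

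**Figure D1:**
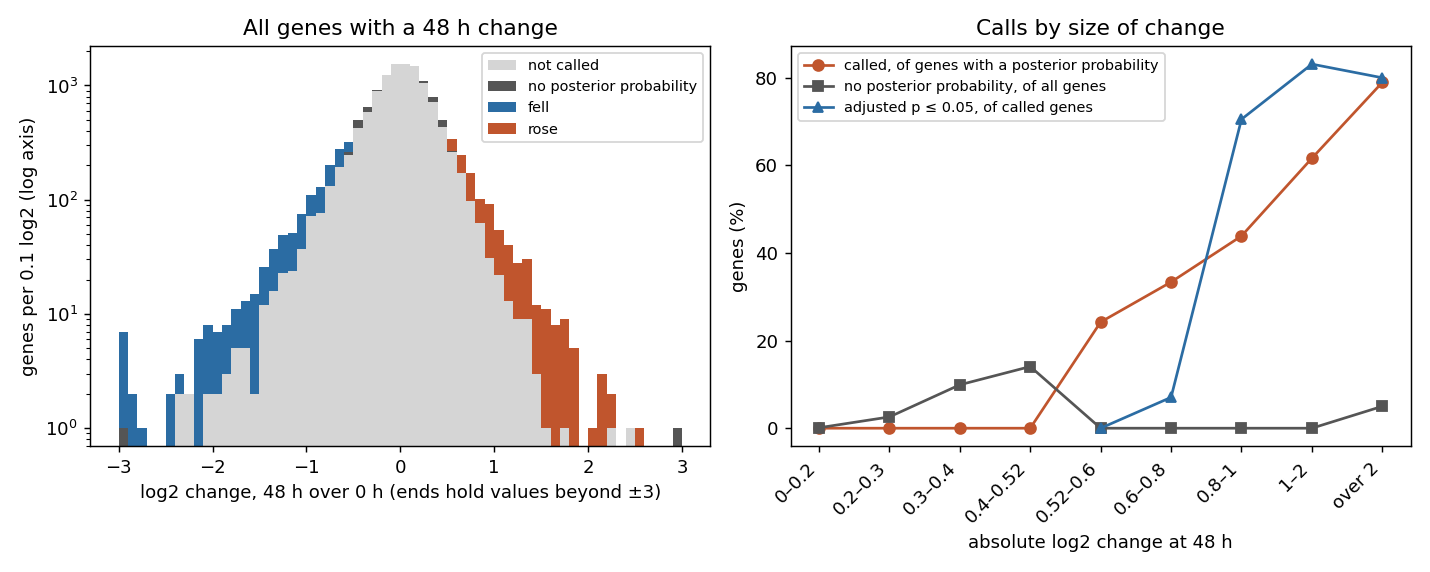
Left, number of genes per 0.1 step of log2 change at 48 h over 0 h on a log axis, stacked by result, with rows of date-like names left out. Right, percentage of genes called, without a posterior probability, or past the second deposited statistic, by absolute log2 change. No gene under 0.51 was called, and genes without a posterior probability lay almost wholly below that value.

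The kinase genes themselves were not called. Cdk12 stood at -0.61 per the authors' deposited table with a deposited adjusted p of 0.612, and reads from the knocked-out locus and the transgene may both fall in this row. The values used here hold no Cdk12 protein, so how far the kinase was depleted at 48 h is not shown. The authors' deposited table gave Ccnk at -0.02 and Cdk13 at -0.19. Markers of embryonic stem cells were checked against the labelled cell type. Of the markers 25 were measured, with a median log2 change of -0.02, and 1 fell (Dppa2) while 1 rose (Tet1), 4.17% of the 24 with a posterior probability in each direction. The core pluripotency factors Pou5f1, Sox2 and Nanog stood at 0.21, 0.39 and -0.06 per the authors' deposited table without a call. The table gives changes and no expression levels, so it cannot show which of these markers were high.

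The 30 largest called falls ran from -5.28 to -1.78, with predicted, clone and RIKEN names left out here and in the rankings that follow. Beside the 4 named above, the authors' deposited table gave Aoah, an enzyme that removes acyl chains from bacterial lipopolysaccharide, at -2.19 after 48 h and -1.44 at 24 h. Nphs1, which encodes nephrin of the kidney filtration barrier, was at -2.19 and -1.22 at the same times, and the drug and toxin extrusion transporter gene Slc47a1 at -2.18 and -1.35, per the authors' deposited table. These 3 genes had deposited adjusted p values of 3.73e-11, 3.58e-10 and 3.72e-10 per the authors' deposited table. They were among the 10 fallen genes with the smallest such values, headed by Rapgef4 at 1.4e-50.

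Lama3, a laminin chain of basement membranes, stood at -2.06 at 48 h and -0.34 at 24 h per the authors' deposited table. Has3, a hyaluronan synthase gene, was at -2.06 and -0.31 at those times by the authors' deposited table. Has3 did not pass the second deposited statistic, with an adjusted p of 0.850 per the authors' deposited table, and Lama3 had no value of it. Both lay nearer to 0 at 24 h than at 48 h. Vwf, the von Willebrand factor gene, fell by 1.94 and the lipocalin gene Apod by 2.06 in log2 units per the authors' deposited table. Apod had already stood at -1.77 at 24 h per the authors' deposited table.

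Dmc1, the recombinase of meiosis, was at -2.17 by the authors' deposited table. Eif4ebp3, a repressor of cap-dependent translation, fell by 2.08 and the carbohydrate kinase gene Fggy by 2.13 in log2 units per the authors' deposited table. Nos1, the neuronal nitric oxide synthase gene, was at -1.81 at 48 h and -0.40 at 24 h per the authors' deposited table, with the Dox mark. Vps53, a subunit of a complex that tethers vesicles to the Golgi, fell by 1.87 with a deposited adjusted p of 9.46e-09 per the authors' deposited table. The de novo DNA methyltransferase gene Dnmt3a and the ciliary gene Iqce were also among the 10 falls of smallest adjusted p, at -1.55 and -1.75 per the authors' deposited table, and Iqce carries the Dox mark. Of the 30 largest falls 24 passed the second statistic, 3 had no value of it and 4 carry the Dox mark.

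With such names left out, the 30 largest called rises ran from 1.56 to 2.53. Neurod1, a neurogenic basic helix-loop-helix factor, stood at 2.53 after 48 h and 1.37 at 24 h per the authors' deposited table. Homeobox and forkhead genes were among the 30 largest rises. Hoxc13 rose by 1.88, En1 by 1.58, Nkx2-9 by 1.58 and Foxj1, the regulator of motile cilia, by 1.60 in log2 units per the authors' deposited table. Of these, En1 did not pass the second statistic, with an adjusted p of 0.0661 per the authors' deposited table. Fosl1, a subunit of the AP-1 factor, rose by 1.80 and had the smallest deposited adjusted p of any named rise, 4e-10, per the authors' deposited table. Zfp750, a factor of epidermal differentiation, stood at 1.87 at 48 h and 1.14 at 24 h per the authors' deposited table. Neurod1 and Zfp750 carry the Dox mark.

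Trp73, which encodes the p53 relative p73, rose by 1.60 and the epoxide hydrolase gene Ephx1 by 1.66 in log2 units per the authors' deposited table. The receptor tyrosine phosphatase gene Ptprv was at 1.82, against 0.54 at 24 h, per the authors' deposited table. All of Trp73, Ephx1 and Ptprv carry the Dox mark. Cd80, a co-stimulatory ligand for T cells, stood at 1.64 at 48 h and 0.37 at 24 h per the authors' deposited table. Rpph1, the RNA component of ribonuclease P and a transcript of RNA polymerase III, rose by 1.63 in this polyA-selected RNA per the authors' deposited table. The trafficking GTPase gene Rab17 rose by 1.56 and the carboxypeptidase gene Cpz by 1.57 in log2 units per the authors' deposited table. Of the 30 largest rises 28 passed the second statistic and 7 carry the Dox mark.

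**Figure D2:**
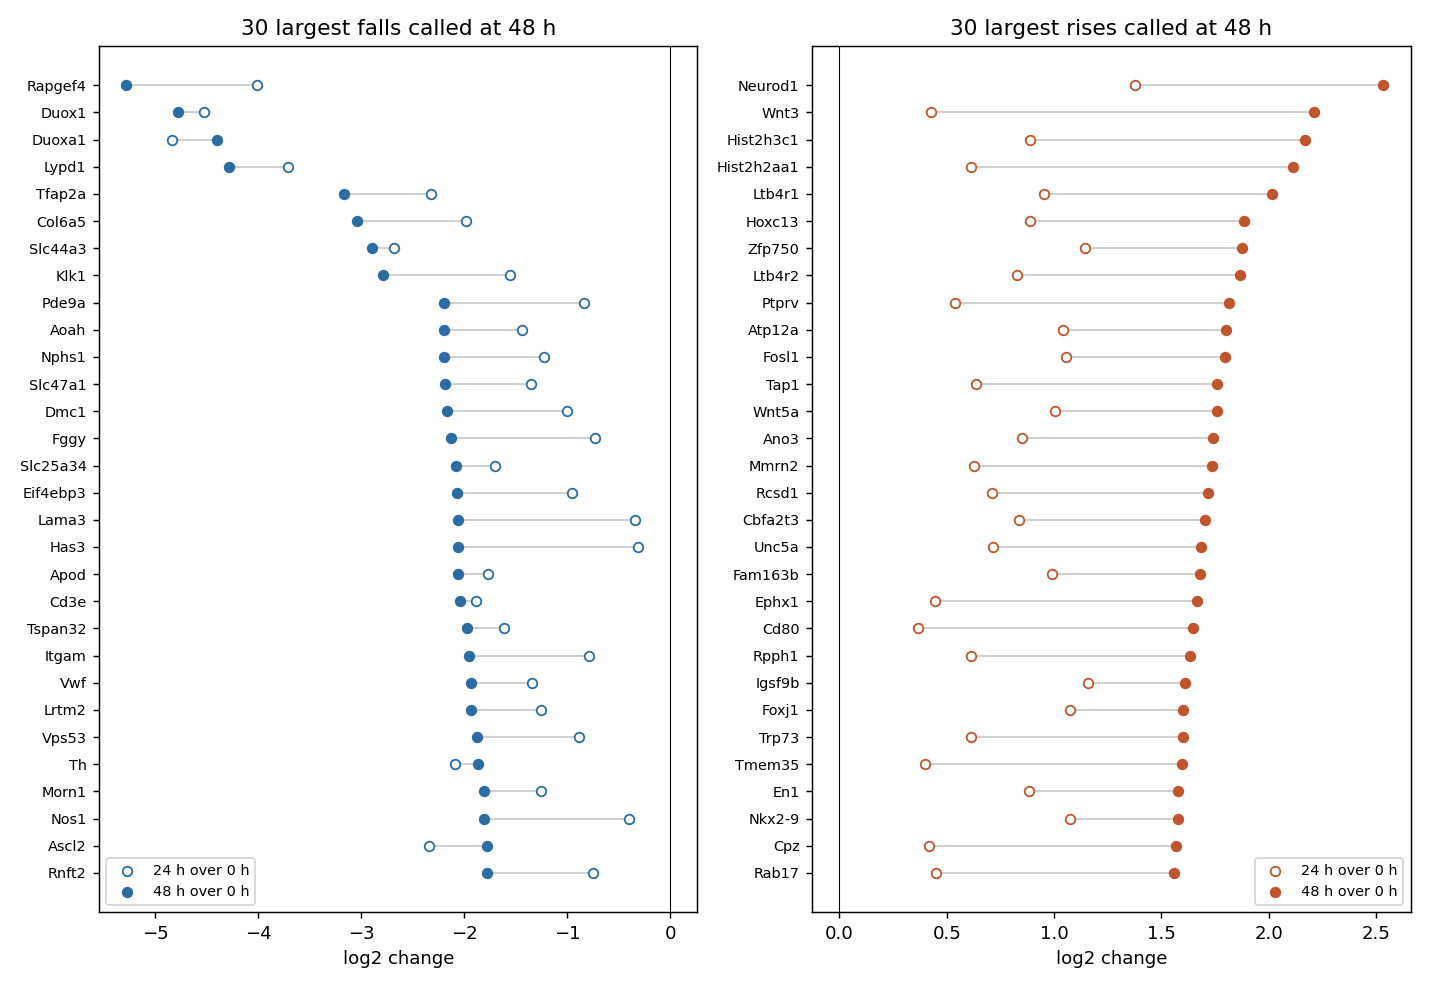
Log2 changes of the 30 largest falls (left) and 30 largest rises (right) called at 48 h, at 48 h (filled) and 24 h (open) over the same 0 h libraries. Predicted, clone and RIKEN names were left out. The falls ran from -5.28 to -1.78 and the rises from 1.56 to 2.53 at 48 h, and Duoxa1, Th and Ascl2 lay further below 0 at 24 h than at 48 h.

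Several Wnt ligand genes rose and none fell. Wnt proteins are secreted signals that bind Frizzled receptors and act both in the upkeep of embryonic stem cells and in the formation of mesoderm. Of 9 measured ligands 5 rose, beside 3.72% of all genes, with a median log2 change of 0.92 beside 0.01 over all genes. Wnt3 stood at 2.21 after 48 h, against 0.43 at 24 h, per the authors' deposited table. Wnt5a was at 1.76 and 1.00, Wnt9a at 1.25 and 0.82, and Wnt10a at 0.92 and 0.69 at those times per the authors' deposited table. Wnt6, which lies next to Wnt10a, rose by 0.85 in log2 units per the authors' deposited table. Of 9 Frizzled receptors 1 fell and none rose, with a median of -0.25. The one that fell was Fzd7, at -0.81 per the authors' deposited table. The secreted Wnt antagonist gene Sfrp4 fell by 1.44, and Rnf43, a ubiquitin ligase that removes Frizzled receptors from the surface, rose by 1.40 in log2 units per the authors' deposited table. Over the whole list of 44 Wnt genes 2 fell and 6 rose, 4.55% and 13.6% beside 3.97% and 3.72% of all genes, so that the share of falls was near that of all genes. Of these 8 calls 7 also passed the second statistic and none carries the Dox mark.

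Ephrins, semaphorins and netrins are cues that attract or repel moving cells and axons, read by Eph receptors, plexins and the Unc5 and Dcc receptors. Of 50 measured guidance genes 9 rose, 18.0% beside 3.72% of all genes, and 1 fell. All 8 ephrin ligand genes lay above 0, with a median of 0.61, and 2 rose, while none of 8 Eph receptor genes was called (median 0.11). Efna3 rose by 1.00 in log2 units per the authors' deposited table. Both measured Unc5 receptors rose, and Unc5a was the larger at 1.68 per the authors' deposited table. Of 15 semaphorins 2 rose and 1 fell. Sema6a rose by 1.42 while Sema3b fell by 1.29 in log2 units per the authors' deposited table. Of 8 plexins 3 rose, and Plxnd1 and Plxnb2 were both at about the same size, 0.83 and 0.82, per the authors' deposited table. Of the 10 calls in the list 5 passed the second statistic, and Sema6a alone carries the Dox mark.

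Notch ligands and other patterning genes had fewer calls in number, though not always a smaller share. The Notch ligand genes Dll1 and Jag2 rose by 1.27 and 1.16 in log2 units per the authors' deposited table, 2 of 4 ligands. They were the only calls among 19 Notch genes, 10.5% beside 3.72% of all genes. Dll1 carries the Dox mark and stood at -0.07 at 24 h per the authors' deposited table. Of 10 Hox genes 2 rose, a share of 20.0%. Beside Hoxc13 this was Hoxb13 at 1.19 per the authors' deposited table. The morphogen genes Nodal and Bmp7 rose by 0.65 and 0.71 in log2 units per the authors' deposited table, neither past the second statistic. They were 2 of 33 measured genes of the TGF-beta, Nodal and BMP pathway, 6.25% of the 32 with a posterior probability. Dhh, a hedgehog ligand, rose by 0.92 and Bbs1, part of the ciliary transport complex, fell by 0.93 in log2 units per the authors' deposited table. These were the only calls among hedgehog and cilia transport genes, 3.23% in each direction and near the shares over all genes.

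Markers of other cell types moved in different directions, and their part in any other result was not tested. Of 10 measured blood, immune and endothelial markers 4 fell, 40.0% beside 3.97% of all genes, and none rose. The list median was -0.89, with a range from -2.04 to 0.74. Cd3e of the T cell receptor complex fell by 2.04, the integrin gene Itgam by 1.95, Cd34 by 1.47 and Pecam1 by 1.29 in log2 units per the authors' deposited table. Embryonic stem cells are known to express Pecam1, so this marker does not separate the cell types. Of 16 endoderm markers 3 rose, 18.8% beside 3.72% of all genes, with a median of 0.55. Trophoblast markers were split, since of 12 members 2 fell and 1 rose, 16.7% and 8.33%, while the list median was 0.71. Tfap2a was at -3.17 and its relative Tfap2c at 1.19 per the authors' deposited table. Feeder fibroblast, neural and mesoderm markers had 1 rise each among 8 members each, a share of 12.5% that rests on 1 gene. None of 11 muscle markers was called.

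In this polyA-selected RNA several replication-dependent histone genes rose and none fell. These genes are made in S phase, lie in clusters, and normally end in a stem-loop without a polyA tail. The values therefore stand for their polyadenylated transcripts, and most listed members were not measured. Whether all transcripts of these genes or only the polyadenylated share changed was not tested. Of 18 measured members 7 rose, 38.9% beside 3.72% of all genes, and 4 of the 18 lay below 0. The list was also examined in earlier work on these data and is not independent evidence, and 3 of the 7 carry the Dox mark. The risen members sat in 3 clusters. In the first, on chromosome 3, Hist2h3c1 stood at 2.17, Hist2h2aa1 at 2.11 and Hist2h2be at 1.07 per the authors' deposited table. In the second, on chromosome 13, Hist1h2bc was at 1.35 and Hist1h1c, a linker histone gene, at 0.95 per the authors' deposited table. Hist3h2ba and Hist3h2a on chromosome 11 rose by 0.88 and 0.75 in log2 units per the authors' deposited table, and at 24 h they stood at -0.03 and 0.00. Near-identical copies of histone genes share reads, so values of single members are uncertain. The next measured gene beyond the chromosome 11 pair, Trim11, rose as well, by 0.72 in log2 units per the authors' deposited table. Among 11 genes of variant and replacement histones, made outside S phase and polyadenylated, 1 rose, the linker histone gene H1f0, at 1.20 per the authors' deposited table.

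The promoters of 5 of the 7 risen histone genes were in the RefSeq table of GRCm38.p6, and they are shown because these genes rose. Each runs from 250 bases before to 50 bases after the listed start, 5′ to 3′ on the gene's own strand, which is the plus strand for all 5. Capitals mark CCAAT and TATAAA, read on either strand. The regions are chr3:96245247-96245546 for Hist2h2aa1, chr3:96246435-96246734 for Hist2h3c1, chr13:23738557-23738856 for Hist1h1c, chr11:58954435-58954734 for Hist3h2a and chr11:58948661-58948960 for Hist3h2ba.
Hist2h2aa1: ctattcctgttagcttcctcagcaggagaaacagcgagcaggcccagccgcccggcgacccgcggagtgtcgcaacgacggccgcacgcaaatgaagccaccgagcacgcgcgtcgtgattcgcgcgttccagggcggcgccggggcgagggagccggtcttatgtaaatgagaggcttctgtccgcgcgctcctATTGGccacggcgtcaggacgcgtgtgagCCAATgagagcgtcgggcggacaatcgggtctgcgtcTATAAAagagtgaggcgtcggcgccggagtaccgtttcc
Hist2h3c1: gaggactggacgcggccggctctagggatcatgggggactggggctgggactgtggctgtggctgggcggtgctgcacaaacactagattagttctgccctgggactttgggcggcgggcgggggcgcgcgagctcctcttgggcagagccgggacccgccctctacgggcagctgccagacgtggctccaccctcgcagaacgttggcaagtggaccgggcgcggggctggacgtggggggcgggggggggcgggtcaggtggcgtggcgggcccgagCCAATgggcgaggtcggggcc
Hist1h1c: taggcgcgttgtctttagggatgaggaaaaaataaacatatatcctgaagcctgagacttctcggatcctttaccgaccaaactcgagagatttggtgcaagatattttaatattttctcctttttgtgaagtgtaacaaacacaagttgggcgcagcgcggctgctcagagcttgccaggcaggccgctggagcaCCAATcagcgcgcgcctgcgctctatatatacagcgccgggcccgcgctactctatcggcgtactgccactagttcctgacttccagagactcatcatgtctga
Hist3h2a: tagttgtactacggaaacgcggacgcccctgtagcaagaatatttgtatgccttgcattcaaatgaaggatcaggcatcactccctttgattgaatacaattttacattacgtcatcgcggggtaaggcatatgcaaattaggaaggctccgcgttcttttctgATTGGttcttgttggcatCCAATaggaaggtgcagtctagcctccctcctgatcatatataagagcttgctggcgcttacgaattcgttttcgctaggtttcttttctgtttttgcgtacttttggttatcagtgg
Hist3h2ba: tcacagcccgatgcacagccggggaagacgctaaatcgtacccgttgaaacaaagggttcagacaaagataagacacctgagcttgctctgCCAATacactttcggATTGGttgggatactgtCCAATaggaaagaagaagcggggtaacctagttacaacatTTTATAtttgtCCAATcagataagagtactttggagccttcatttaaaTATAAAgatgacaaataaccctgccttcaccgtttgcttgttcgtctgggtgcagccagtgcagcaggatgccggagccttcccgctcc

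All 5 of these windows hold CCAAT, which is bound by the factor NF-Y, and 2 hold TATAAA. The only CCAAT of Hist2h3c1 began 29 bases after the listed start. The only TATAAA of Hist2h2aa1 began 11 bases after it, and the other marked sites lay before the start. Among the 10 uncalled histone genes with a listed promoter 7 hold CCAAT and 4 hold TATAAA. Over the promoters of all 9764 tested genes with a listed start, 43.3% hold CCAAT and 8.39% hold TATAAA. The listed starts of Hist2h2aa1 and Hist2h3c1 lie 1188 bases apart.

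Some targets of p53 rose and none fell. p53 is the transcription factor that answers DNA damage by stopping the cell cycle or starting apoptosis. Of 31 measured targets 27 had a posterior probability, and 11 of these rose, 40.7% beside 3.72% of all genes. Of the 31 targets 6 lay below 0. A p53 list was also shown in earlier work on these data, so the direction is not independent evidence. Stress and repair genes were among the members. Ercc5, a nuclease of nucleotide excision repair, rose by 0.92 and Trp53inp1, a cofactor of p53 in apoptosis, by 1.13 in log2 units per the authors' deposited table. Bbc3 and Pmaip1, which encode the BH3-only death proteins Puma and Noxa, rose by 1.32 and 0.80 in log2 units per the authors' deposited table. They were the only calls among 30 genes of the BCL2 and caspase families. Of the 11 risen targets 9 carry the Dox mark, beside 14.3% of all rises, and without marked genes 2 were left. What the mark stands for is not defined in the table. The consensus decamer of p53 was found in the listed promoters of 2 of 7 risen targets (Cdkn1a and Mdm2) and of 6 of 12 uncalled ones, beside 8.23% of all promoters.

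Of 36 genes of recombination and Fanconi anemia repair 27 lay below 0, with a list median of -0.28. The list had 3 falls, 8.57% of members with a posterior probability beside 3.97% of all genes. Of these 3 falls 2 passed the second statistic and 1 carries the Dox mark. Fanci at -1.36 and Fancd2 at -1.23 were not called, with posterior probabilities of 0.167 and 0.123, per the authors' deposited table. Fanca, a core subunit of the Fanconi complex, was at -1.31 at 48 h and -0.39 at 24 h per the authors' deposited table. Rad51c, which helps load the recombinase, was at -0.90 and -0.79 per the authors' deposited table. In nucleotide synthesis the thymidine kinase gene Tk1 fell by 0.96 in log2 units per the authors' deposited table and passed the second statistic. At telomeres Obfc1, a subunit of the complex that protects the single-stranded end, fell by 1.39 in log2 units per the authors' deposited table. Tep1, a telomerase-associated protein, and Acd, a shelterin subunit, stood at -0.68 and -0.55, and Wrap53, which guides telomerase RNA, at 0.85 per the authors' deposited table, and Acd carries the Dox mark. That made 3 falls and 1 rise among 18 telomere genes with a posterior probability, 16.7% and 5.56% beside 3.97% and 3.72% of all genes. Of these calls only Obfc1 and Wrap53 passed the second statistic.

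**Figure D3:**
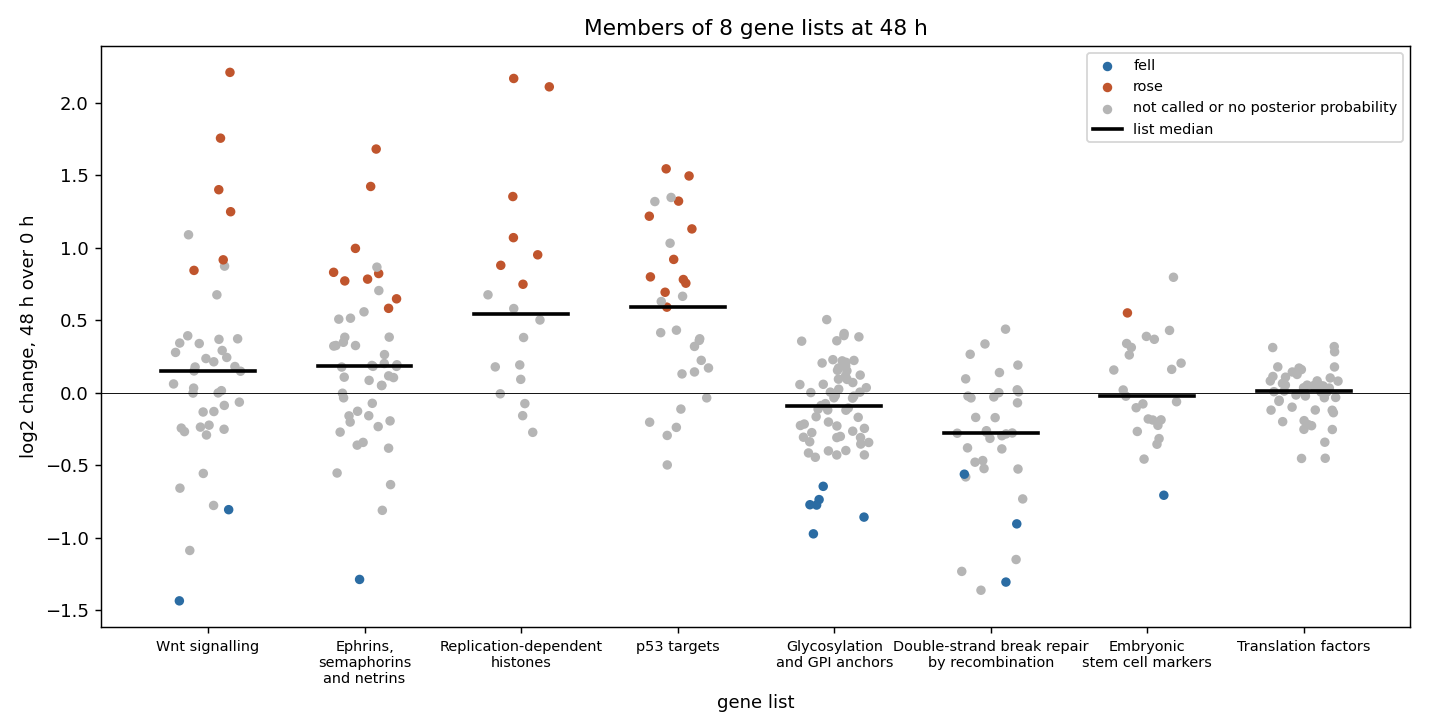
Log2 change at 48 h over 0 h of each measured member of 8 gene lists, coloured by result, with the list median as a bar and sideways scatter for display only. Medians ran from -0.28 for recombination genes to 0.59 for p53 targets, and no translation factor gene was called.

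A few genes that build sugar chains fell and none rose. Of 64 glycosylation and GPI anchor genes with a posterior probability 6 fell, 9.38% beside 3.97% of all genes, and none rose. Dystroglycan is a surface receptor that binds laminin through a special sugar chain, and 3 of the 6 measured enzymes that build it fell. Pomgnt1 fell by 0.97, Pomt1 by 0.74 and Large by 0.65 in log2 units per the authors' deposited table. Of 21 Pig genes for the lipid anchor 2 fell, Pigp and Pigb, at -0.77 each per the authors' deposited table, and Alg8, a glucosyltransferase of N-glycans, was at -0.86. By the second statistic only Pomgnt1 and Alg8 passed, and Pomgnt1 and Pomt1 carry the Dox mark.

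Lysosomal enzymes degrade macromolecules taken up or recycled by the cell. Of 46 lysosomal genes with a posterior probability 5 fell, 10.9% beside 3.97% of all genes, and 2 rose, 4.35% beside 3.72%. The beta-galactosidase gene Glb1 fell by 1.08, and Sgsh, which degrades heparan sulfate, by 0.61 in log2 units per the authors' deposited table. The protease gene Ctsd rose by 0.87 in log2 units per the authors' deposited table. Glb1 and Ctsd were the calls that passed the second statistic.

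The hydrogen peroxide-producing oxidase Duox1 and its maturation factor Duoxa1 are read from neighbouring starts, and both fell. Duox1 stood at -4.78 after 48 h and -4.53 at 24 h, and Duoxa1 at -4.40 and -4.84, per the authors' deposited table. The annotated spans, which cover every listed transcript of a gene, overlap, although the starts listed for the promoters lie apart, and without strand information reads of overlapping genes cannot be told apart. Their promoters are shown because the genes face away from each other and both fell. By RefSeq on GRCm38.p6, Duox1 is on the plus strand at chr2:122315422-122315721 and Duoxa1 on the minus strand at chr2:122313681-122313980, with listed starts 1942 bases apart. Capitals mark CG pairs.
Duox1: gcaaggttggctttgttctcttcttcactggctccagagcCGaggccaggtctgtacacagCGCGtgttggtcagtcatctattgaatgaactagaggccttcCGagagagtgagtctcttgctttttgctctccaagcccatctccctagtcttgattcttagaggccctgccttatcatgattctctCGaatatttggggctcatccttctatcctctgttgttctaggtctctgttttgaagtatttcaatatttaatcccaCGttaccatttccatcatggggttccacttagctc
Duoxa1: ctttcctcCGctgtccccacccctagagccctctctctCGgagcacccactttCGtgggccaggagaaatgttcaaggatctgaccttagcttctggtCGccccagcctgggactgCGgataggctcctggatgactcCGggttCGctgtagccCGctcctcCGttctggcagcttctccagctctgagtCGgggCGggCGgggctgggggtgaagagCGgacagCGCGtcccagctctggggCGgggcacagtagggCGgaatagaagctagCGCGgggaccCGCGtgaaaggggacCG

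The Duox1 window holds 6 CG pairs in 300 bases and the Duoxa1 window 22.

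Calls in other groups were few in number. Of 42 imprinted genes 4 fell and 1 rose. That was 10.3% and 2.56% of the 39 with a posterior probability, beside 3.97% and 3.72% of all genes. Th, Ascl2 and Tspan32, which follow each other on chromosome 7, were at -1.87, -1.78 and -1.98 at 48 h per the authors' deposited table. At 24 h the same genes stood at -2.09, -2.34 and -1.61 per the authors' deposited table. Mest, an imprinted gene elsewhere, fell by 0.66 in log2 units per the authors' deposited table. In antigen presentation the peptide transporter genes Tap1 and Tap2, which lie side by side, rose by 1.76 and 0.81 in log2 units per the authors' deposited table, Tap1 with the Dox mark. Heat shock genes had 3 rises of 25, a share of 12.0%, and no falls. The largest was the chaperone gene Hspa1a at 0.97 per the authors' deposited table. The leukotriene receptor genes Ltb4r1 and Ltb4r2, which also lie side by side, rose. They were the only calls among 20 eicosanoid genes, a share of 10.0%.

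No member was called in 7 of the 60 lists, 206 measured genes in all. These were cohesin and condensin, autophagy, iron and haem, the citric acid cycle, mitochondrial DNA upkeep, translation factors and muscle markers. All 49 translation factor genes lay between -0.45 and 0.32. The cohesin and condensin list had 21 of 24 members above 0, up to Esco2 at 0.87 and Nipbl at 0.85 per the authors' deposited table, none of them called.

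**Figure D4:**
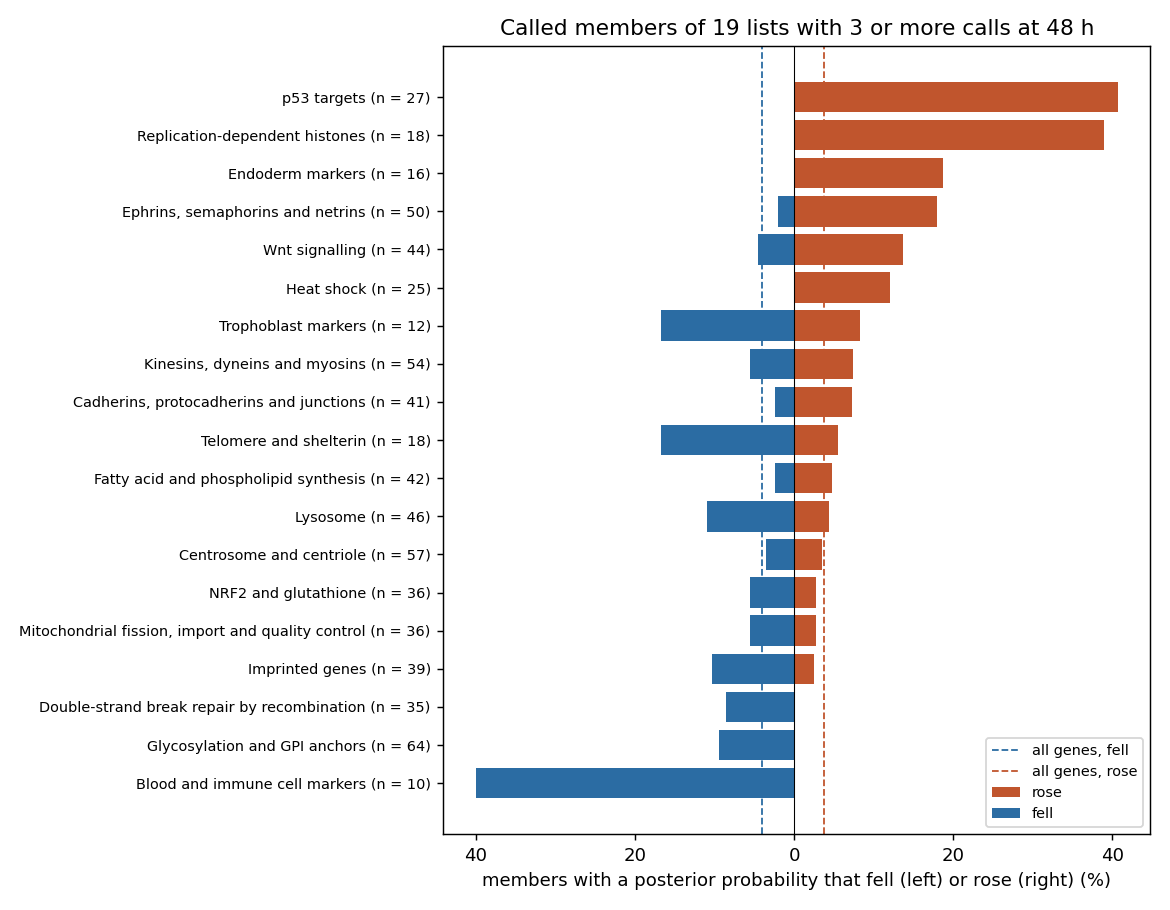
Percentage of members with a posterior probability that fell (left) or rose (right) at 48 h, for 19 of the 21 lists with 3 or more called members (the other 2 are not shown), with dashed lines at the shares over all genes (3.97% and 3.72%). p53 targets and replication-dependent histones had the highest shares of rises among those shown, 40.7% and 38.9%, and some lists share members.

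Families grouped by gene name, chosen after values were seen, were also counted. Of 211 solute carriers with a posterior probability 18 fell and 7 rose, 8.53% and 3.32% beside 3.97% and 3.72% of all genes. Of 312 genes named Zfp 4 fell and 4 rose, 1.28% each. Among 23 collagens 5 fell and 1 rose, 21.7% and 4.35%. They ran from Col6a5 at -3.04 to Col1a1 at 0.89 per the authors' deposited table, Col1a1 with the Dox mark. Of these collagen calls only Col27a1 passed the second statistic, and Col6a5 and Col16a1 had no value of it. Of 36 proteasome subunits 1 fell, 2.78%, and none rose.

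Called genes were compared by position. Among 12297 placed genes with a posterior probability, 36 neighbouring pairs both fell, 29 both rose and 29 held 1 gene of each direction. Of the fallen genes 13.9% had a next gene that also fell, and of the risen genes 11.9% had a next gene that also rose. Over all placed genes 7.69% had a next gene that fell and 7.16% one that rose. Within 10000 bases 32 pairs shared their direction and 15 did not. Named pairs included Dtnb and Dnmt3a, both lower, at -1.21 and -1.55 per the authors' deposited table. Rsph1, Slc37a1 and Pde9a on chromosome 17 were at -1.36, -1.16 and -2.20 per the authors' deposited table, Pde9a with the Dox mark. In the other direction Lgr6, Ptprv and Ptpn7 on chromosome 1 were at 1.20, 1.82 and 0.64 per the authors' deposited table, and Lgr6 and Ptprv carry the Dox mark. Opposite neighbours included Galns and Cbfa2t3, at -1.08 and 1.70 per the authors' deposited table. Spans overlapped in 6 pairs of the same direction and 6 of opposite direction, and there shared reads cannot be told apart.

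Gene length, promoter type and chromosome were described without a test, since genes are not replicates. Falls were most frequent in the shortest quartile, up to 9.91 kb, at 5.53%, and least in the third quartile at 3.03%. Rises were most frequent in the longest quartile, over 53.3 kb, at 4.46%, and least in the shortest at 3.12%. The median length was 18.2 kb for fallen, 23.0 kb for uncalled and 25.9 kb for risen genes. Promoters with a CpG ratio (observed over expected) of at most 0.35 had 4.81% falls and 6.03% rises, those between 0.35 and 0.65 had 5.29% and 3.81%, and those above 0.65 had 3.50% and 3.16%. CCGGAAG, the core recognised by ETS factors, read on either strand, was in 10.8% of promoters of risen genes, 20.2% of those of fallen and 20.2% of those of uncalled genes. By chromosome, falls ran from 1.66% on chromosome 12 to 6.97% on chromosome 17, with 6.58% on chromosome 7. Rises ran from 2.04% on chromosome X to 5.92% on chromosome 12.

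**Figure D5:**
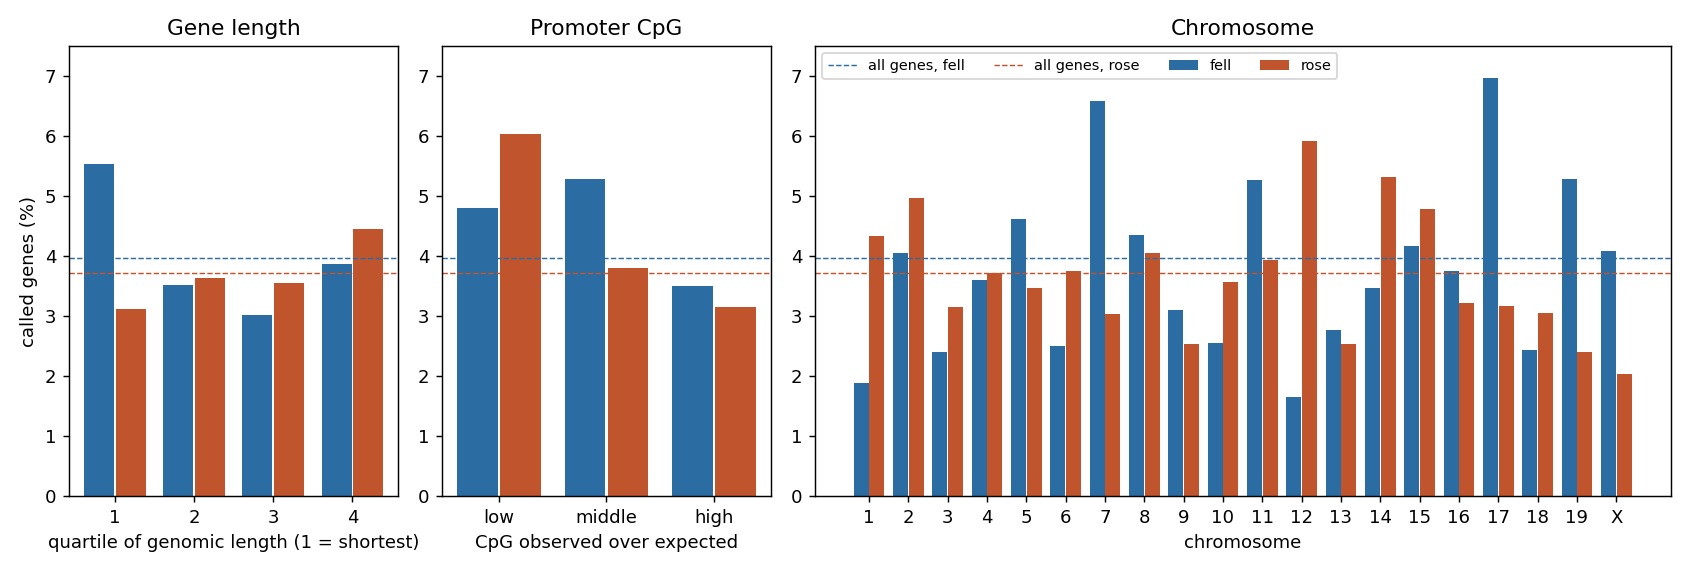
Percentage of tested genes that fell or rose at 48 h by quartile of genomic length, by promoter CpG class (low at most 0.35, high above 0.65) and by chromosome, with dashed lines at the shares over all genes. Short genes fell more often (5.53%) and low-CpG promoters rose more often (6.03%) than all genes.

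The 2 deposited statistics named different numbers of genes. An adjusted p of at most 0.05 was met by 465 genes, 3.71% of those with that value, as 249 falls (1.99%) and 216 rises (1.72%). Both statistics were met by 224 falls and 206 rises. Size of change separated them. Among called genes with a log2 change of 0.6 to 0.8 in size 7.05% met the adjusted p, and between 0.8 and 1 it was 70.5%. The Dox mark sat on 16.8% of falls and 14.3% of rises, 149 genes or 1.20% of those tested, and on no uncalled gene.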

How the data were processed

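PolyA-selected RNA was measured in 4 libraries at 0 h and 4 at 48 h without Dox, from knockout clones 28 and 36. STAR 2.4.1d, RSEM, DESeq 1.22.1 and the builds mm9 and mm10 appear in the submitters' processing notes without a stated role, and the sheet's name holds EBSeq. Per the file headers, the authors' deposited table gives for each gene a posterior probability of differential expression (a fraction from 0 to 1), a log2 fold change, a yes or no Dox mark and an adjusted p-value. The deposited adjusted p-values come with no statement of their test. The log2 values were deposited as 0 h over 48 h by the order of times in their headers and were multiplied by -1. If that reading were wrong every fall and rise would be exchanged.

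Calls needed a posterior probability of at least 0.95. With no library values, no model was fitted, no list was tested, and precision enters only through the authors' own statistics. Members and lists were chosen with earlier results of these data known. Xrcc1 was taken out of the recombination list after the data were seen, because it acts in base excision repair. Named genes were Cdk12, Ccnk and Cdk13, the 30 largest called changes and 10 smallest adjusted p per direction, 8 per direction without a posterior probability, up to 6 called members per list (otherwise up to 2 of largest change) and their called neighbours, leaving out predicted and date-like names. Pou5f1, Sox2, Nanog, Fzd7 and the members of families by gene name were named after their values were seen. A few results are not reported here. The 23 date-like rows were counted and not named. Symbols matched RefSeq (GRCm38.p6) for 12707 rows, which gave lengths, neighbours and promoters. No gene coordinates are printed but those of the promoters, since the sources used here do not tie the RNA values to a build. The motifs were chosen after the data were seen. Python 3.11.15 scripts with pandas 2.3.3 and NumPy 2.4.6 counted the table and were tested on simulated data. Alternatives were other thresholds, minimum changes, the deposited adjusted p as the call, and removal of marked or predicted genes.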

Additional observations from a re-analysis of the deposited data

How the results depend on the processing

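Counts of genes that fell (493) and rose (461) kept within 1.5 times under a posterior probability of at least 0.99, a minimum change of 1.5-fold, removal of Dox-marked genes and removal of predicted names. At 2-fold or more 187 fell and 145 rose. With the deposited adjusted p as the call 249 fell and 216 rose, and with both statistics together 224 fell and 206 rose. Of 120 counts of called list members 11 moved beyond 1.5 times at 0.99, 41 under the adjusted p and 15 without marked genes. Without marked genes risen p53 targets went from 11 to 2 and risen histone genes from 7 to 4. Many of the 120 counts had no call to start with. Those could not move at 0.99 or without marked genes, so the unmoved ones overstate how stable the calls were. All 60 list medians moved by under 0.1 with members that carry a posterior probability only. Of 20 shares by length, promoter and chromosome class none moved beyond 1.5 times at 0.99, without marked genes or in protein-coding genes, and 18 moved under the adjusted p, which calls fewer genes. No paired analysis was possible because the deposited table holds no values per library, and for the same reason no replicate could be left out. The depth is unknown.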

Other observations

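Of 54 kinesin, dynein and myosin genes with a posterior probability 3 fell and 4 rose, 5.56% and 7.41% beside 3.97% and 3.72% of all genes. The mitotic kinesin genes Kifc1 and Kif18b both rose by 0.79 on the log2 scale, and Kif26b by 1.07, per the authors' deposited table. The mitochondrial myosin gene Myo19 fell by 0.81 in log2 units per the authors' deposited table. In mitochondria Oma1, a protease of the inner membrane, fell by 1.32 and Ndufaf3, an assembly factor of complex I, by 1.06 in log2 units per the authors' deposited table, Ndufaf3 with the Dox mark. Among glutathione and NRF2 genes Gstm5 fell by 1.33 and Gpx3, the secreted glutathione peroxidase, rose by 1.32 in log2 units per the authors' deposited table. The Polycomb ubiquitin ligase gene Ring1 fell by 0.88 and the chromatin remodeller genes Smarcc2 and Baz1a stood at -0.79 and 0.85 per the authors' deposited table.

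A posterior probability was missing for 358 genes with a 48 h change. Of these 356 lay within a 1.43-fold change in either direction, at a median log2 size of 0.39. The share of genes without one rose with the size of change up to that point. It was 0.104% at a log2 size of up to 0.2, 9.91% between 0.3 and 0.4, and 14.1% between 0.4 and 0.51. Above that point no gene up to a size of 2 lacked the value. Below it 10001 genes carried a posterior probability, and none reached the threshold of 0.95. The table at 24 h had 156 genes without the value, all but 2 of them below the same size. The 2 exceptions at 48 h were the calcium-binding protein gene Pvalb at -12.27 and the predicted gene Gm14430 at 13.99 per the authors' deposited table. Counts of called genes therefore cover no change under 1.43-fold. Whether these gaps come from a filter by the authors was not tested.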
